A study of Mus musculus with 4 samples.

Results

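Fatty acid synthesis and desaturation genes were followed in mouse early blastocysts of 2 kinds: those from in vitro fertilization (IVF), and those from SCNT (somatic cell nuclear transfer, the placing of a somatic nucleus in an oocyte whose own nucleus has been taken out). The 10 genes were Acly, Acaca, Fasn, Me1, Elovl6, Elovl5, Scd1, Scd2, Fads1 and Fads2, picked by symbol out of 23235 symbols listed in each library, and all 10 were found. Each group had 2 libraries, and each library was made from 6 pooled embryos lysed 96 hours from fertilization or activation. The IVF embryos combined Xist KO oocytes of 129S1/Svj background with sperm of wild-type CAST/EiJ males. Nuclei for SCNT were those of embryonic fibroblasts, heterozygous for the Xist KO and with a 129S1/SvImj mother and a CAST/EiJ father, and the recipient oocytes were those of B6D2F1/J (BDF1) mice. Both groups thus carried a maternal Xist KO allele in a 129 by CAST background, and the strain of the oocyte differed with the group, so that oocyte strain and SCNT cannot be told apart. The column names of the SCNT libraries also carry the name kdm4d, a histone demethylase gene, and no label says what it stands for. The labels do not say whether the 2 libraries of a group had separate parents or were made on separate days, so a p-value reflects the spread among these 4 libraries alone, and that spread may be technical.

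Cells build fatty acids from citrate that leaves the mitochondrion. ATP citrate lyase (Acly) turns it into acetyl-CoA, acetyl-CoA carboxylase (Acaca) makes malonyl-CoA, and fatty acid synthase (Fasn) joins these units into palmitate with NADPH, part of which malic enzyme (Me1) supplies. Elovl6 and Elovl5 lengthen fatty acids, the stearoyl-CoA desaturases Scd1 and Scd2 make monounsaturated ones, and Fads1 and Fads2 make polyunsaturated ones. Many of these genes, like those of cholesterol synthesis, are known targets of the SREBP transcription factors, which are held inactive by Insig proteins when sterols are plentiful, and Me1 is also a known target of the antioxidant factor Nrf2. Mammalian embryos take up fatty acids as well as make them, and store them in lipid droplets.

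The values are taken to be FPKM, which divides the fragments of a gene by its transcript length and by the mapped total. Levels of different genes can be compared only roughly, since the annotation and the handling of shared reads are not given. In short, 9 of the 10 genes had a lower mean FPKM in SCNT and also a lower value in SCNT at both library numbers, and Fads1 was lower by its mean alone. None passed the test. On the log2(FPKM + 1) scale, IVF libraries 1 and 2 differed from each other by more than the groups did for every member except Me1. SCNT libraries 1 and 2 differed by about as much as, or more than, the groups did for Acly, Acaca, Fasn, Scd1, Elovl6 and Fads1. They differed by less for Scd2 (0.76, against a group difference of -0.94), Elovl5, Fads2 and Me1. Me1 was the only member whose groups did not overlap, and Elovl6 was the member whose groups differed least.

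The promoters of 4 members are shown because these genes cover the range of values described here. The genes are Fasn and Acly, with a wide spread between libraries, Me1, whose groups did not overlap, and Elovl6, whose groups differed least. The RefSeq promoter table (build GRCm38.p6, not the mm9 build named for the files) had an entry for 7 of the 10 members; Scd1, Scd2 and Fads1 were not matched. Each window runs from 250 bases before to 50 bases after an annotated start, 5′ to 3′ on the gene's strand. Capitals mark matches, on either strand, to any of 5 motifs: a sterol regulatory element (TCACNCCAC), the E-box (CACGTG), the CCAAT box (CCAAT), the GC box (GGGCGG) and the antioxidant response element (TGACNNNGC).
Fasn, chr11:120824498-120824797, minus strand: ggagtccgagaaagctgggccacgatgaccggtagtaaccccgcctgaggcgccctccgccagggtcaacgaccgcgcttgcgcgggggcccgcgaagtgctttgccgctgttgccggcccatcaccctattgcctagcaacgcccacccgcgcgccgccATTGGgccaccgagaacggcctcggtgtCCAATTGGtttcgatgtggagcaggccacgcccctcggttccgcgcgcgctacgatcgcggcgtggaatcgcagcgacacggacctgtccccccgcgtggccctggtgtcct
Acly, chr11:100527951-100528250, minus strand: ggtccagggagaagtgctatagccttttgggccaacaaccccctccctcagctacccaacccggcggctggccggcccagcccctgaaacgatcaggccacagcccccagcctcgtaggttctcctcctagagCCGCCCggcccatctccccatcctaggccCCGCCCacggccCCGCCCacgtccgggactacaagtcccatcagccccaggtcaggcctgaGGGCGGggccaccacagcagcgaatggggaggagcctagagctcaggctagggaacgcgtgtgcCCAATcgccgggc
Me1, chr9:86695865-86696164, minus strand: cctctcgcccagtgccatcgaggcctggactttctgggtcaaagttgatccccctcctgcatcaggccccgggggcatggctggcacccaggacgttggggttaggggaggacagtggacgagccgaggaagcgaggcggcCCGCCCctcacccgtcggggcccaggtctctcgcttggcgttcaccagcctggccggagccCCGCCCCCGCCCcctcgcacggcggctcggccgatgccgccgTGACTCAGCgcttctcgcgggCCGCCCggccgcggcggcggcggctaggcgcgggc
Elovl6, chr3:129532136-129532435, plus strand: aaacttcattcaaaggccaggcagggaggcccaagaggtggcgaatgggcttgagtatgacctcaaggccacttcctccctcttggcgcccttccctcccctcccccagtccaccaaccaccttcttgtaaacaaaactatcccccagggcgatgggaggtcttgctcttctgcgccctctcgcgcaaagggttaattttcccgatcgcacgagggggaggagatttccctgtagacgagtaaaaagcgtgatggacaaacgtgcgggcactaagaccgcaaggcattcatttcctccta

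The Fasn window held 3 CCAAT box matches, of which 2 overlap as CCAATTGG. A CCAAT box match was found in 37.4% of all 32851 windows of the table. The Acly window held 4 GC box matches and 1 CCAAT box match, and the Me1 window held 4 GC box matches and TGACTCAGC, a match to the antioxidant response element. At least 1 GC box match occurred in 35.7% and at least 1 antioxidant response element match in 12.4% of all windows. The 5 motifs were chosen with the promoters in view, so these shares are background and no test. Me1 has a second window in the table, not printed, with 1 CCAAT box match. The Elovl6 window held no match to any of the 5 motifs. Among the other windows, Elovl5 had 1 E-box match, which 7.15% of all windows have, and 2 CCAAT box matches, Fads2 had 1 GC box match, and Acaca had none. The sterol regulatory element was matched in 1.24% of all windows and in no member's window, which says only that these letters are not in these 300 bases.

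**Figure D1:**
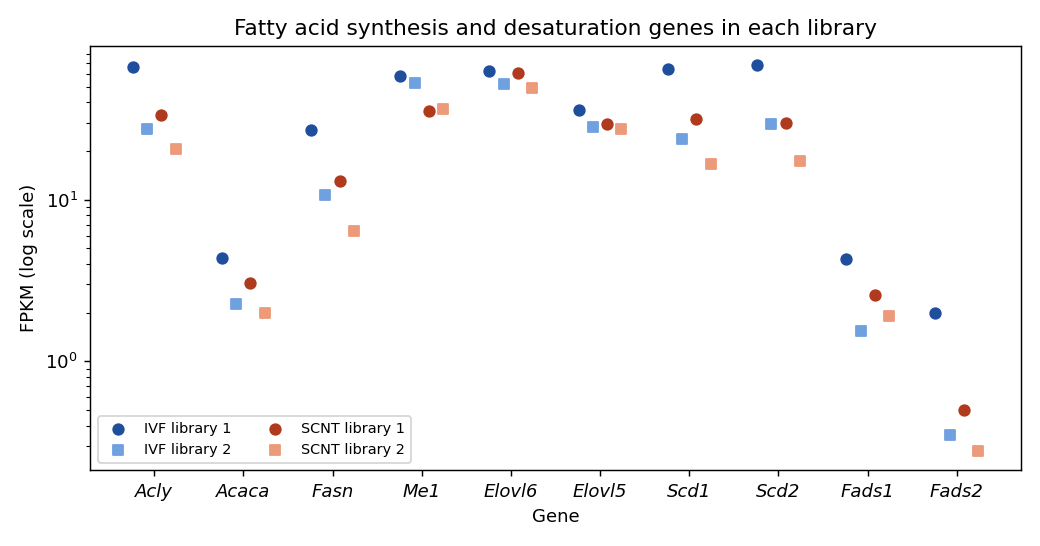
FPKM of the 10 genes (log scale) in each of the 4 libraries, blue for IVF and red for SCNT, with circles for libraries numbered 1 and squares for those numbered 2. IVF library 1 is the highest point for every gene, and only Me1 has both SCNT points below both IVF points.

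Levels differed widely along the pathway. In IVF the mean FPKM ran from 57.5 ± 7.63 (SD, n = 2) for Elovl6 and 55.3 ± 3.98 for Me1, through 48.5 ± 27.3 for Scd2, 46.6 ± 27.4 for Acly, 44.0 ± 28.6 for Scd1, 31.9 ± 5.38 for Elovl5 and 18.8 ± 11.5 for Fasn, to 3.30 ± 1.48 for Acaca, 2.93 ± 1.97 for Fads1 and 1.17 ± 1.16 for Fads2. Neighbours in that order overlapped between libraries, except that Elovl5 was above Fasn and Fasn above Acaca in both libraries. In SCNT the order was Elovl6, Me1, Elovl5, Acly, Scd1, Scd2, Fasn, Acaca, Fads1 and Fads2. There Elovl6 stood apart from Me1, Me1 from Elovl5, Scd2 from Fasn, Fasn from Acaca and Fads1 from Fads2, and the other neighbours overlapped. Elovl5 thus stood below both Scd genes and Acly by mean in IVF and above them in SCNT, though its library values overlapped with those of Scd1 in IVF and of Acly in SCNT.

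Genes with a mean of at least 1 FPKM over the 4 libraries were tested, 11039 in all and 9 of the 10 members, with Fads2 under that limit. Differences are SCNT minus IVF on the log2(FPKM + 1) scale, which understates the change of low genes, and the test was limma with Benjamini-Hochberg adjustment over all tested genes. At an adjusted p under 0.05, 14 genes were called, 0.127% of those tested, and 0 of the 9 members. At an unadjusted p under 0.05 there was 1 member, Me1, against 7.09% of all tested genes. All 9 estimates were below 0, as were 47.8% of all estimates, and the members' median was -0.61 against 0.01 for all tested genes. Within library number 1 (SCNT 1 minus IVF 1) the median was -0.69, and within library number 2 it was -0.39. Of the 9 genes, 8 were lower in SCNT within both numbers, as were 30.1% of all tested genes. The members are not independent of each other, since they share the 4 libraries and known regulators.

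Acly, the first enzyme of the pathway, had 66.0 and 27.2 FPKM in IVF libraries 1 and 2, and 33.5 and 20.5 FPKM in SCNT libraries 1 and 2. IVF library 1 stood far above the rest, and IVF library 2 lay between the SCNT libraries. The difference was -0.67 ± 0.47 (SE; limma adjusted p = 0.934), with -0.95 within number 1 and -0.39 within number 2. Without IVF library 1 it was -0.05, and without SCNT library 2 it was -0.33.

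Acaca, which encodes the enzyme at the committed step, had 4.34 and 2.25 FPKM in IVF and 3.06 and 1.98 FPKM in SCNT. The groups overlapped, and the difference of -0.26 ± 0.32 had an adjusted p of 0.9996 (limma). It was 0.10 without IVF library 1. Acaca was thus low beside Acly and Fasn in every library.

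Fasn had 27.0 and 10.7 FPKM in IVF and 13.0 and 6.42 FPKM in SCNT. SCNT library 1 was above IVF library 2, so the groups overlapped, while within each number SCNT was the lower library. The ratio of the group means was 0.516 and the difference -0.83 ± 0.51 (limma adjusted p = 0.898), with -0.998 within number 1 and -0.653 within number 2. It was -0.19 without IVF library 1, -1.46 without IVF library 2 and -0.37 without SCNT library 2.

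Me1, the cytosolic malic enzyme that yields NADPH, had 58.2 and 52.5 FPKM in IVF and 35.6 and 36.3 FPKM in SCNT. Both SCNT libraries were below both IVF libraries, and the libraries of a group lay close together. Such a separation with SCNT lower was seen in 1 of the 9 tested members and in 15.1% of all tested genes. The ratio of the means was 0.649 and the difference -0.61 ± 0.17 (unadjusted p = 0.0154, limma adjusted p = 0.506), with -0.69 and -0.52 within numbers 1 and 2. The unadjusted p was above 0.05 in 3 of the 4 fits that left out a library, while the difference stayed between -0.68 and -0.54 in all 4.

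**Figure D2:**
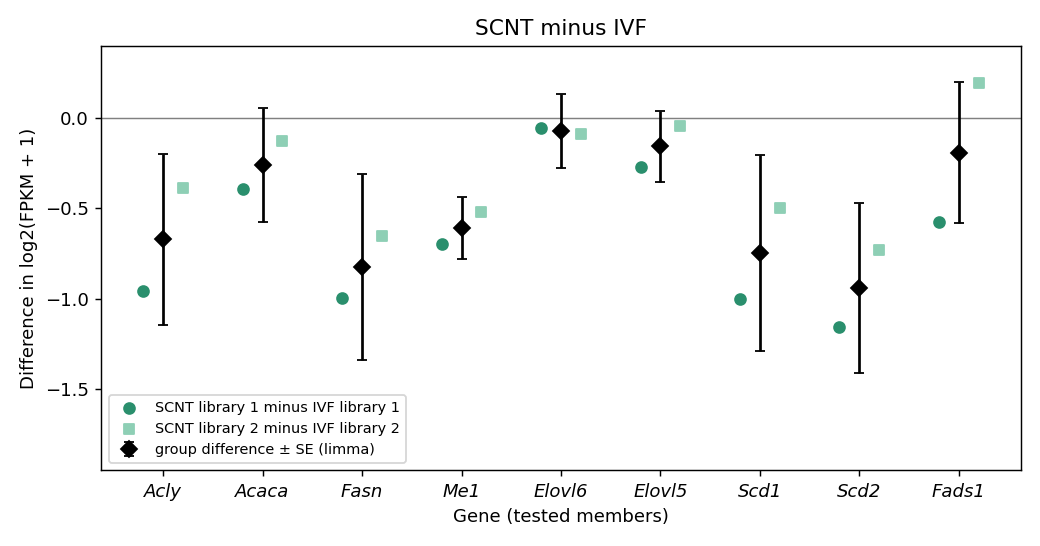
Differences in log2(FPKM + 1), SCNT minus IVF, for the 9 tested genes: diamonds are the limma estimates with 1 SE either way, circles the difference within library number 1 and squares within library number 2. Me1 has the narrowest error and lies at -0.61, while Fasn, Acly, Scd1 and Scd2 lie between -0.94 and -0.67 with errors of 0.47 to 0.54.

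The elongases showed the smallest differences. Elovl6, which lengthens palmitate, had 62.9 and 52.1 FPKM in IVF and 60.5 and 49.0 FPKM in SCNT, a ratio of means of 0.952. The groups overlapped and the difference was -0.07 ± 0.21 (limma adjusted p = 0.9996). Elovl5, which lengthens polyunsaturated fatty acids, had 35.7 and 28.1 FPKM in IVF and 29.5 and 27.3 FPKM in SCNT. Its difference was -0.16 ± 0.20 (adjusted p = 0.9996), and IVF library 1 was again the highest. Neither estimate kept its sign when IVF library 1 was left out (0.06 for Elovl6 and 0.01 for Elovl5), and that of Elovl6 was 0.08 without SCNT library 2.

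The stearoyl-CoA desaturase genes followed Fasn and Acly. Scd1 had 64.2 and 23.8 FPKM in IVF and 31.6 and 16.6 FPKM in SCNT, and Scd2 had 67.9 and 29.2 FPKM in IVF and 29.9 and 17.2 FPKM in SCNT. For both, IVF library 1 had more than any other library and SCNT library 2 the least. The difference was -0.75 ± 0.54 for Scd1 (limma adjusted p = 0.945) and -0.94 ± 0.47 for Scd2 (adjusted p = 0.845), the lowest estimate of the 9. Within numbers 1 and 2 it was -1.001 and -0.498 for Scd1 and -1.16 and -0.73 for Scd2. Without IVF library 1 the values were -0.05 for Scd1 and -0.35 for Scd2, and without SCNT library 2 they were -0.30 and -0.56. Scd1 and Scd2 are close paralogs, and how reads shared by both were divided is unknown here. The FPKM of Scd2 was 1.06 and 1.23 times that of Scd1 in the IVF libraries and 0.946 and 1.04 times in the SCNT libraries.

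The desaturases of polyunsaturated fatty acids were low. Fads1 had 4.32 and 1.53 FPKM in IVF and 2.57 and 1.90 FPKM in SCNT, so that both SCNT libraries lay between the IVF libraries. Its difference was -0.19 ± 0.39 (limma adjusted p = 0.9996), -0.58 within number 1 and 0.19 within number 2, and it turned to 0.34 without IVF library 1. Fads2 had 1.98 and 0.349 FPKM in IVF and 0.5003 and 0.279 FPKM in SCNT. IVF library 1 held most of the Fads2 signal and the other 3 libraries were at or below 0.5003 FPKM. With no filter on low values Fads2 could be fitted, and the difference was -0.53 ± 0.42 (limma adjusted p = 0.918). Fads3, a paralog named after its values were seen, was also under the filter, with 1.16 and 0.887 FPKM in IVF against 0.268 and 0.260 FPKM in SCNT.

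The spread between libraries of a group had a pattern of its own. In IVF, library 1 had 2.53 times as much Fasn as library 2, 2.43 times as much Acly, 2.70 times as much Scd1, 2.32 times as much Scd2 and 2.82 times as much Fads1. These 5 of the 9 tested members exceeded 2-fold, against 2.37% of all tested genes. In SCNT the same ratios of library 1 to library 2 were 2.03, 1.63, 1.91, 1.73 and 1.35. Elovl6 (1.21 in IVF and 1.23 in SCNT), Elovl5 (1.27 and 1.08) and Me1 (1.11 and 0.980) varied far less. In all, 8 of the 9 genes were higher in library 1 than in library 2 in both groups, as were 39.6% of all tested genes.

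**Figure D3:**
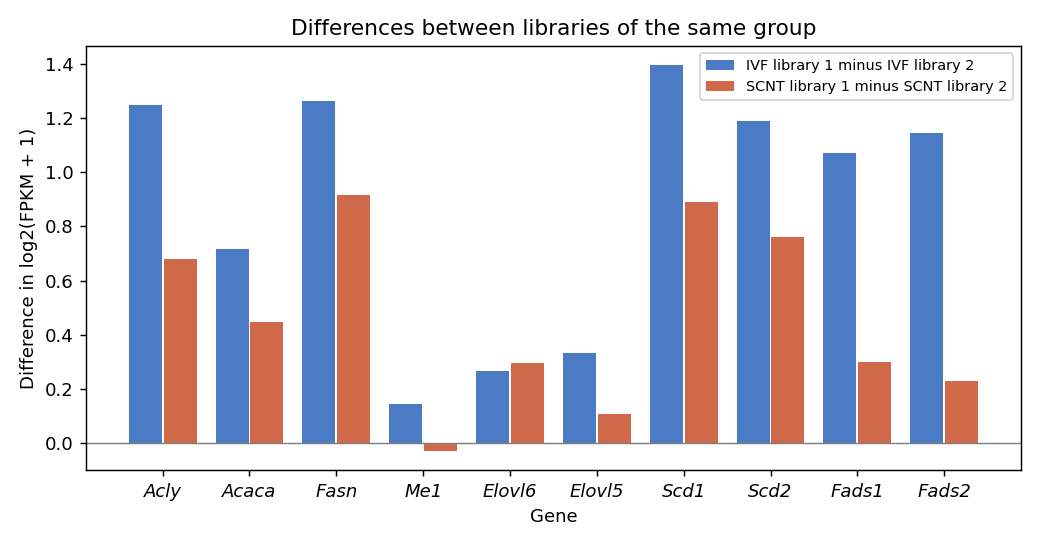
Difference in log2(FPKM + 1) between library 1 and library 2 of the same group for the 10 genes, blue bars for IVF and red bars for SCNT. The bars reach 1.39 for Scd1 in IVF and 0.92 for Fasn in SCNT, and Me1 is near 0 in both.

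Levels relative to Fasn within a library varied less for some genes than for others. Scd1 had 2.38 and 2.23 times the FPKM of Fasn in IVF libraries 1 and 2 and 2.43 and 2.58 times in SCNT, and Acly had 2.44, 2.55, 2.58 and 3.20 times in the same order. These 2 ratios thus ranged from 2.23 to 2.58 and from 2.44 to 3.20, while Fasn itself ranged from 6.42 to 27.0 FPKM. The ratio of Elovl6 to Fasn was 2.33 and 4.89 in IVF and 4.65 and 7.63 in SCNT, and that of Me1 to Fasn was 2.16 and 4.92 in IVF and 2.73 and 5.65 in SCNT. Both of these ratios were higher in library 2 than in library 1 of each group, and so was that of Acly to Fasn. The ratio of Acaca to Fasn also rose from library 1 to library 2, from 0.161 to 0.211 in IVF and from 0.235 to 0.309 in SCNT.

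Some features of whole libraries moved with the number or the group. FPKM summed to between 933167 and 985197, and IVF and SCNT libraries 1 listed 6527 and 6505 genes at 0, against 5716 and 5212 in libraries 2. No read counts are given, so the counting error of single values is unknown. Low genes gave the relative depth of the libraries numbered 1: their values in SCNT library 1 gathered at 0.965 times those in IVF library 1 (11.4% of 3540 low genes within a narrow range), which is the ratio of what 1 fragment adds, and the other pairs gave no clear value. By the longest coding transcript in GENCODE M21, which matched 84.9% of tested genes, the median difference of IVF library 1 minus 2 ran from -0.13 among genes of at most 1850 bases to 0.12 among those of at least 4386 bases, where Fasn, Acaca, Acly, Scd1, Scd2 and Elovl6 fall. In SCNT it ran from -0.13 to 0.08, and for the group difference from 0.06 to -0.03. The rise between libraries was not steady: genes of 2924 to 4385 bases, among them Fads1 and Me1, had 0.14 in IVF and 0.09 in SCNT. The part of these shifts in the members' values was not tested. MicroRNA and small nucleolar RNA genes took 12.4% and 12.0% of summed FPKM in IVF against 9.54% and 9.62% in SCNT. Leaving them out and rescaling therefore raised IVF relative to SCNT on average, and the median of all tested genes went from 0.01 to -0.03. Estimates below 0 are moved further down by such a shift, so that all 9 stayed below 0 says nothing of their robustness.

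Markers of the blastocyst lineages were present: 11 of 11 trophectoderm markers, 9 of 9 markers of inner cell mass and epiblast and 5 of 7 of primitive endoderm reached 1 FPKM in all 4 libraries. Summed FPKM of the trophectoderm list was 4480 and 3682 in IVF and 6104 and 4037 in SCNT, with Krt18 the most abundant gene. It was 518 and 551 against 556 and 587 for inner cell mass and epiblast, and 304 and 224 against 283 and 209 for primitive endoderm. The trophectoderm and primitive endoderm sums were higher in libraries 1 than in libraries 2 of each group. Trophectoderm markers also had mostly higher estimates in SCNT: their median difference was 0.40, 9 of 11 estimates were above 0, 4 were higher in SCNT at an unadjusted p under 0.05 with limma (469 of all 11039 tested genes were) and 5 were higher without overlap (2024 of all were), and 0 were called after adjustment. The part of these markers in the members' values was not tested. In pooled embryos, fewer cells of a type and less RNA per cell cannot be told apart. None of 12 fibroblast markers reached 1 FPKM in all 4 libraries, 2 did so in any library, and Twist2 and S100a4 were listed at 0 in all 4. The list summed to 3.46 and 1.79 FPKM in IVF and 6.38 and 1.42 FPKM in SCNT. Col1a1, the highest of them by mean, had 0.730 and 0.0846 FPKM in IVF and 3.38 and 0.193 FPKM in SCNT. Cumulus and granulosa markers summed to 7.29 to 14.4 FPKM, nearly all of it from Nr5a2, with Amh, Ptx3 and Cyp19a1 listed at 0 in all 4. The 10 oocyte markers summed to 3.72 to 7.05 FPKM, and none of them reached 1 FPKM in all 4 libraries, while 4 did so in any library.

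Of the further enzymes of fatty acid synthesis, elongation and desaturation, 16 of 23 listed genes were tested and 0 were called, and 0 had an unadjusted p under 0.05. Their median was -0.08, with 9 estimates below and 7 above 0. The groups of 3 did not overlap with SCNT lower, against 15.1% of all tested genes. Those of 2 did not overlap with SCNT higher, against 2024 of all 11039 tested genes. Acss2, which makes acetyl-CoA from acetate, had 13.4 and 6.21 FPKM in IVF and 7.77 and 5.70 FPKM in SCNT, high in IVF library 1 as Acly was. Scd3, a paralog of Scd1, had 3.96 and 2.91 against 2.41 and 2.59 FPKM. Cyb5r3, which passes electrons to desaturases through cytochrome b5, had 110 and 105 FPKM in IVF and 87.5 and 79.5 FPKM in SCNT (difference -0.37 ± 0.17, limma adjusted p = 0.827), without overlap. Acacb, the carboxylase isoform tied to fatty acid oxidation, had 0.879 and 0.926 FPKM in IVF and 1.28 and 1.13 FPKM in SCNT.

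Other genes listed under NADPH supply showed no common direction. The list includes Taldo1 and Tkt, whose enzymes do not themselves make NADPH. Of 8 tested, 4 estimates were below and 4 above 0, the median was 0.03, and 0 were called or had an unadjusted p under 0.05 with limma. Me2, the mitochondrial malic enzyme, had 11.1 and 10.6 FPKM in IVF and 16.1 and 12.8 FPKM in SCNT, higher in SCNT where Me1 was lower, with a difference of 0.37 ± 0.19 (limma adjusted p = 0.853). Idh1, the cytosolic isocitrate dehydrogenase, had 103 and 43.2 FPKM in IVF and 59.6 and 29.4 FPKM in SCNT. The order of the 4 libraries was that of Fasn, with IVF library 1 highest and SCNT library 2 lowest. Pgd, of the pentose phosphate pathway, had 109 and 75.8 against 79.2 and 64.6 FPKM, and Taldo1 differed by -0.16.

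Among SREBP and related control genes, 15 of 16 were tested, the median was -0.02, and limma called 0. It gave 2 an unadjusted p under 0.05, against 7.09% of all tested genes. The groups of 4 did not overlap with SCNT lower, against 15.1% of all tested genes. Those of 2 did not overlap with SCNT higher, against 2024 of all 11039 tested genes. Srebf1, whose product is best known for activating fatty acid synthesis genes, had 10.1 and 8.83 FPKM in IVF and 6.88 and 7.72 FPKM in SCNT, without overlap (difference -0.34 ± 0.18, limma adjusted p = 0.865). Srebf2, whose product mainly activates cholesterol synthesis genes, was at 12.5 and 12.7 against 12.4 and 12.0 FPKM. Its groups did not overlap either, though the difference was only -0.04. Scap, which escorts both products, was at 5.32 and 4.34 against 5.12 and 5.15 FPKM. Insig1, an inhibitor of SREBP release and itself an SREBP target, had 86.2 and 43.1 FPKM in IVF and 35.7 and 22.4 FPKM in SCNT. Both SCNT libraries were below both IVF libraries, library 1 was above library 2 in each group, and the difference was -1.08 ± 0.40 (unadjusted p = 0.0433, limma adjusted p = 0.670). Insig2 differed by -0.12, and Thrsp, a lipogenic regulator, by -0.33. Erlin1, which takes part in the breakdown of HMG-CoA reductase, had 6.90 and 6.31 FPKM in IVF and 8.73 and 10.6 FPKM in SCNT (unadjusted p = 0.0468, limma adjusted p = 0.688). Mlxipl, which encodes the sugar-responsive factor ChREBP, did not exceed 0.430 FPKM in any library and was not tested.

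Of the 7 further lists, that of cholesterol synthesis and uptake had the median nearest to that of the members. All 21 tested genes had estimates below 0 and were lower in SCNT within both library numbers, with a median of -0.79, -0.78 within number 1 and -0.71 within number 2. None was called with limma and 7 had an unadjusted p under 0.05, against 7.09% of all tested genes. The groups of 12 did not overlap with SCNT lower, against 15.1% of all tested genes. Of the 21, 18 were higher in library 1 than in library 2 in both groups. Fdft1, which makes squalene, had 118 and 91.0 FPKM in IVF and 60.3 and 49.6 FPKM in SCNT. Mvk, mevalonate kinase, had 128 and 89.1 against 57.6 and 44.3 FPKM, Sc4mol, a sterol demethylation enzyme, had 113 and 96.1 against 64.8 and 55.3 FPKM, and Stard4, a sterol carrier, had 10.9 and 11.8 against 5.88 and 6.34 FPKM. The median difference between IVF library 1 and 2 was 0.57 for this list and 1.07 for the 9 members, and between SCNT library 1 and 2 it was 0.61 for this list and 0.45 for the members. The direction of cholesterol genes in these libraries was known beforehand and is no independent support for that of the members. Hmgcs1 was listed at 0 in all 4 libraries.

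**Figure D4:**
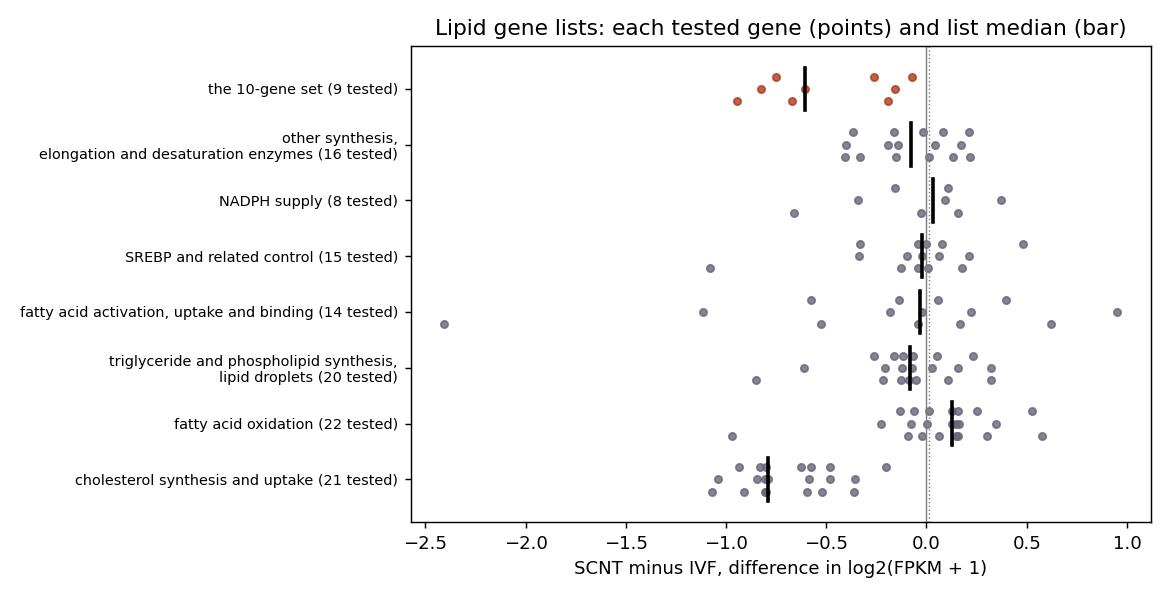
Difference in log2(FPKM + 1), SCNT minus IVF, of every tested gene (points) in the 10-gene set (red) and 7 further lipid lists (grey), with the list median as a black bar and the median of all tested genes as a dotted line. The medians of the 10-gene set (-0.61) and of cholesterol synthesis and uptake (-0.79) lie left of the others, which run from -0.08 to 0.13.

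Genes that use or store fatty acids had estimates in both directions. Of 14 tested genes for activation, uptake and binding, 8 estimates were below and 6 above 0, the median was -0.03, and limma called 0. It gave 3 an unadjusted p under 0.05, against 7.09% of all tested genes. Acyl-CoA synthetase genes went both ways: Acsl5 had 4.25 and 4.64 FPKM in IVF and 12.1 and 7.42 FPKM in SCNT (unadjusted p = 0.0145, limma adjusted p = 0.506), and Acsl6 had 12.4 and 10.7 against 15.2 and 21.9 FPKM. Acsl4, which prefers arachidonic acid, had 6.04 and 3.97 against 3.18 and 2.77 FPKM. Fabp9, a fatty acid-binding protein gene, had 11.7 and 8.54 FPKM in IVF and 0.736 and 1.48 FPKM in SCNT, with a difference of -2.41 ± 0.27 (limma adjusted p = 0.123).

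For triglyceride and phospholipid synthesis and lipid droplets, 20 of 26 genes were tested, the median was -0.08, and limma called 0. It gave 1 an unadjusted p under 0.05, against 7.09% of all tested genes. Agpat9, which encodes a glycerol-phosphate acyltransferase, had 61.1 and 50.2 FPKM in IVF and 28.7 and 31.9 FPKM in SCNT (difference -0.85 ± 0.19, unadjusted p = 0.00631, limma adjusted p = 0.389). Like Me1, it was lower in both SCNT libraries with little spread within groups. The phosphatidate phosphatase gene Lpin1 had 4.78 and 2.204 against 2.04 and 1.61 FPKM. The lipid droplet coat genes Plin2 and Plin3 had estimates in the other direction, with 115 and 114 FPKM for Plin2 and 79.7 and 73.8 FPKM for Plin3 in IVF, and 163 and 126 FPKM and 94.2 and 97.7 FPKM in SCNT.

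Fatty acid oxidation genes had a median of 0.13, with 15 estimates above and 7 below 0 among 22 tested. With limma 0 were called and 3 had an unadjusted p under 0.05, against 7.09% of all tested genes. Slc25a20, which carries acylcarnitines into mitochondria, had 76.6 and 71.7 FPKM in IVF and 34.8 and 40.1 FPKM in SCNT, a difference of -0.97 ± 0.18 (unadjusted p = 0.00269, limma adjusted p = 0.310). Etfdh, which passes electrons from fatty acid oxidation to the respiratory chain, had 9.44 and 10.5 against 15.0 and 15.6 FPKM. The isomerase Eci1 had 31.7 and 31.1 against 44.2 and 47.3 FPKM, and the reductase Decr1 had 6.20 and 6.59 against 8.02 and 8.22 FPKM. These 4 genes were named for the smallest unadjusted p of the list. None passed over all genes, and in each the groups did not overlap. Of the 22 tested, 2 were lower and 7 higher in SCNT without overlap. Of all 11039 tested genes, 1662 were lower and 2024 higher without overlap.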

How the data were processed

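RNA was sequenced from pooled early blastocysts. Per the labels' protocols, cDNA came straight from lysed embryos (SMARTer Ultra Low Input kit), was amplified and sheared, and went into NEBNext Ultra DNA libraries. The values deposited by the authors are taken to be FPKM, a unit inferred from the values and from Cufflinks, per the submitters' processing notes. Those notes name TopHat2 2.0.14, Bowtie2 2.1.0, Cufflinks 2.2.1 and mm9. Which annotation, filters, strand setting or scaling was used is not given in the sources. FPKM of 1 gene also moves when a few abundant genes change, and low genes are noisy after amplification from few cells.

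Libraries were grouped by title. Log2(FPKM + 1) of genes averaging at least 1 FPKM was tested with limma 3.58.1 (R 4.3.3), with group as the only term and a mean-variance trend, two-sided. The fit was tested on simulated data. Lists are described by counts and medians. Named genes were the 10 members, up to 4 genes per lipid list with the smallest unadjusted p, and Srebf1, Srebf2, Scap, Insig1, Insig2 and Mlxipl. The members and lists were chosen with earlier results of these data known, and the 5 motifs with the promoters in view. Alternatives were other pseudocounts, filters, priors and scalings, a replicate block, and leaving out each library.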

Additional observations from a re-analysis of the deposited data

How the results depend on the processing

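No alternative brought a member past the threshold: 0 members were called in all 13 alternatives (limma, lowest adjusted p 0.118), against 1 at an unadjusted p under 0.05. Of 115 values of single members under the alternatives, 110 kept their direction and 5 reversed, all on leaving out a library: Acaca 0.10, Elovl5 0.012, Elovl6 0.062 and Fads1 0.34 without IVF library 1, and Elovl6 0.077 without SCNT library 2. Over the fits that left out a library, the difference ranged from -1.46 to -0.19 for Fasn, -0.62 to 0.10 for Acaca, -1.30 to -0.05 for Acly, -1.45 to -0.05 for Scd1, -1.54 to -0.35 for Scd2, -0.32 to 0.012 for Elovl5, -0.22 to 0.077 for Elovl6, -0.73 to 0.34 for Fads1 and -0.68 to -0.54 for Me1. The number of members with an unadjusted p under 0.05 ranged from 0 (without IVF library 1 or SCNT library 2, where 6.14% and 5.20% of all tested genes had one) to 6 (without IVF library 2, where 7.11% had one). The lone library of a group is there assumed to vary like the other group. Over all genes, the 14 called became 45 to 53 when a library was left out and 9 without the short RNA genes (microRNA and small nucleolar RNA) and with the rest rescaled; the share of calls higher in SCNT was 57.1% of the 14, 33.3% of those 9, and 31.9% to 68.9% on leaving out a library. The cause was not tested. With the replicate number as a block, 5 members (Fasn, Acly, Scd1, Scd2 and Me1) had an unadjusted p under 0.05 and a lower value in SCNT, as did 7.02% of tested genes, and 0 passed after adjustment (limma, lowest adjusted p 0.118). The labels do not say that a number marks a shared day or parent. Over the 11039 tested genes the deviations of the libraries numbered 1 from their group means correlated at r = 0.31. With group as the only term, differences like those of Fasn, Acly, Scd1 and Scd2 could not be told from the spread between libraries. Each group had 2 libraries of unknown depth, and with the block 0 members passed after adjustment either.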
